A study of Mus musculus with 4 samples.

Results

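Blood monocytes were represented by 2 of the 4 RNA-seq libraries of the series, those that the submitters described as monocyte. The other 2 libraries were neutrophils, whose values are given beside those of the monocytes without a test. The cells came from the peripheral blood of adult mice of the C57BL6 strain, and the study's methods give male animals. No allele, transgene or treatment was named for either cell type. The blood was separated on Ficoll. The labels give the monocytes as Gr-1+Mac-1+ cells sorted from the mononuclear layer, whereas the study's methods describe a Ly6g-negative, CD11b-positive gate. The neutrophils were taken from the pellet after lysis of the red cells. Total RNA was depleted of ribosomal RNA before the libraries were made. The labels do not say whether the replicates came from separate animals, so the spread between them may be technical, and the study's methods allow for either different groups of mice or aliquots of a shared group.

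Monocytes are circulating phagocytes that develop from bone marrow progenitors under the growth factor CSF1. In the mouse they fall into classical cells, which carry Ly6C and CCR2 and enter inflamed tissue, and nonclassical cells, which depend on the nuclear receptor NR4A1 and patrol the vessel wall. Both kinds take up particles and lipids, degrade them in lysosomes and can present antigen.

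Gene levels are expected counts per 1000000 protein-coding counts (pcCPM) in replicate 1 and replicate 2, in that order. An expected count is an estimated number of reads for a gene, and longer genes collect more reads. Ranks by pcCPM, and the words highest or led by within a list, therefore order genes by their share of the reads. Levels per length are TPM values (transcript levels corrected for gene length) rescaled to 1000000 over the protein-coding genes (pcTPM). The monocyte libraries held 26076416 and 25538457 expected counts, of which 76.4% and 75.8% lay in protein-coding genes. A gene with 0 counts can have had up to 3 by counting error, which is 0.151 pcCPM in replicate 1 and 0.155 pcCPM in replicate 2. The libraries carry no molecular identifiers, so this limit covers counting error only. In bulk samples, fewer cells of a type and less RNA per cell cannot be told apart.

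All 7 markers given with the cell type were well represented. They were chosen with earlier results of these data known, so their levels are no independent check of the label. Lyz2, the lysozyme of myeloid cells, stood at 9302 and 8924 pcCPM. Apoe, a lipid carrier of macrophages and nonclassical monocytes, stood at 2881 and 2913 pcCPM. Adgre4, an adhesion receptor of the EGF-TM7 family, stood at 1467 and 1509 pcCPM. The scavenger receptor gene Cd36 had 1466 and 1414 pcCPM, and the CSF1 receptor gene Csf1r had 1370 and 1490 pcCPM. Ace, which encodes angiotensin-converting enzyme, had 881 and 845 pcCPM, and the fractalkine receptor gene Cx3cr1 had 556 and 529 pcCPM. The replicates lay close together for each of the 7, and each was over 5 times the neutrophil mean, with the ratio ranging from 542% of that mean for Lyz2 to 7686% for Adgre4. The summed level of the 7 genes was 17924 and 17623 pcCPM in monocytes, against 2081 and 2212 pcCPM in neutrophils.

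Several of the most abundant genes have near-identical copies next to them in the genome, and the stretches below show how far reads can tell the copies apart. Lyz2 (mm10, chr10:117277331-117282321, minus strand) and its neighbour Lyz1 (chr10:117287797-117292868, minus strand) differ at 22 of 444 coding bases. The alpha globin genes Hba-a2 (chr11:32296489-32297298, plus strand) and Hba-a1 (chr11:32283511-32284465, plus strand) differ at 1 of 426 coding bases. Each line gives 60 coding bases in the sense direction from the GENCODE transcripts, and capitals mark the bases at which the copies differ. The lysozyme stretch spans coding bases 61 to 120 in exon 1 of 4 (chr10:117282123-117282182 for Lyz2 and chr10:117292719-117292778 for Lyz1). The globin stretch spans coding bases 322 to 381 in exon 3 of 3 (chr11:32297101-32297160 for Hba-a2 and chr11:32284284-32284343 for Hba-a1).
Lyz2: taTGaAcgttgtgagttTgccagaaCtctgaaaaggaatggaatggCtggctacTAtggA
Lyz1: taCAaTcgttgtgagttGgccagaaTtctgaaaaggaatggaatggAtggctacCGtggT
Hba-a2: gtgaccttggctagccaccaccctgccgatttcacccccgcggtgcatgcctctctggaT
Hba-a1: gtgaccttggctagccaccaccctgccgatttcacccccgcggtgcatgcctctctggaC

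Of the stretches of 50 bases in the Lyz2 transcript, 15.4% occur also in Lyz1, whereas 86.9% of those in the Hba-a2 transcript occur also in Hba-a1. Lyz1 was assigned only 24.1 and 28.6 pcCPM, so nearly all lysozyme reads were assigned to Lyz2. Hba-a1 was assigned 521 and 610.5 pcCPM beside 4995 and 5630 pcCPM for Hba-a2. The split between these globin copies rests on the stretches that they do not share. RSEM, the program that estimated the counts, gave Hba-a2 an uncertainty of at most 0.0318% of its count. The split was not checked in another way. The beta globin genes Hbb-bs and Hbb-bt also differ at 1 coding base, of 441, and the same limit holds for them. RSEM's uncertainty for Hbb-bs was at most 0.422% of its count.

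The annotation held 21474 protein-coding genes. Of these, 11350 had a count in both monocyte libraries, 1552 in only 1 of them and 8572 in neither. A level of at least 1 pcCPM in both libraries was reached by 10410 genes, of at least 50 pcCPM by 3839 genes, and of at least 500 pcCPM by 270 genes. The most abundant gene, Lyz2, held 0.911% ± 0.027 (SD, n = 2) of the protein-coding counts. The 10 most abundant genes held 5.47% ± 0.14, the top 100 held 19.8% ± 0.12, and the top 1000 held 55.7% ± 0.21 (SD, n = 2 each). No gene dominated the monocyte transcriptome, and the most abundant genes needed to reach 50% of the counts numbered 773 in replicate 1 and 762 in replicate 2. The corresponding numbers were 824 and 831 in neutrophils.

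The leading genes joined a myeloid defence gene, the leukocyte cytoskeleton, the translation machinery and globin. After Lyz2 came beta-actin, Actb (6561 and 7171 pcCPM), and Ptprc (6541 and 6395 pcCPM), which encodes the leukocyte phosphatase CD45. The translation elongation factor gene Eef1a1 had 5501 and 6032 pcCPM. Hba-a2 came next, and it is described with the traces of red cells. These levels differed little between the replicates, and 23 of the 25 highest genes of each library were shared.

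Cytoskeletal genes were frequent further down the same ranking. Flna, which encodes the actin cross-linker filamin A, had 4262 and 4274 pcCPM. Tmsb4x, for the actin monomer binder thymosin beta 4, had 4072 and 4094 pcCPM. Actr3, a subunit gene of the Arp2/3 actin-nucleating complex, had 2430 and 2160 pcCPM, and Myh9, for nonmuscle myosin, had 2382 and 2100 pcCPM. Ahnak and Macf1, which encode giant proteins linked to the cell cortex and cytoskeleton, had 4199 and 4191 pcCPM and 2530 and 2486 pcCPM. Their rank rested on their length, since on the pcTPM scale Ahnak came only at rank 357 and Macf1 at rank 381.

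Host defence and antigen display made up a second block of the top 25. Cybb, the catalytic subunit gene of the phagocyte NADPH oxidase, had 3469 and 3395 pcCPM, beside 363 and 384 pcCPM in neutrophils. Ctss, for the lysosomal protease cathepsin S, had 3308 and 2762 pcCPM. Psap, for the precursor of the lysosomal saposins, had 2118 and 2114 pcCPM. The classical MHC class I genes were in the same range, with H2-D1 at 3481 and 3009 pcCPM and H2-K1 at 2085 and 2188 pcCPM. Their light chain gene B2m had 1834 and 2284 pcCPM. Surface genes of this block were Spn, for the sialoprotein CD43 that marks nonclassical monocytes, at 2579 and 2670 pcCPM, and Itga4, for the integrin alpha 4 chain, at 2231 and 2240 pcCPM. The neutrophil libraries had 131 and 127 pcCPM of Spn.

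Other genes of the top 25 are used by most cells. Ddx5, for an RNA helicase, had 4609 and 4344 pcCPM, and Sf3b1, for a core splicing factor, had 2143 and 2265 pcCPM. The chaperone gene Hspa8 had 2974 and 2896 pcCPM. H3f3b, for the replacement histone H3.3, had 2178 and 2137 pcCPM. Neutrophils shared 11 of the 25 highest genes and 51 of the highest 100.

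**Figure D1:**
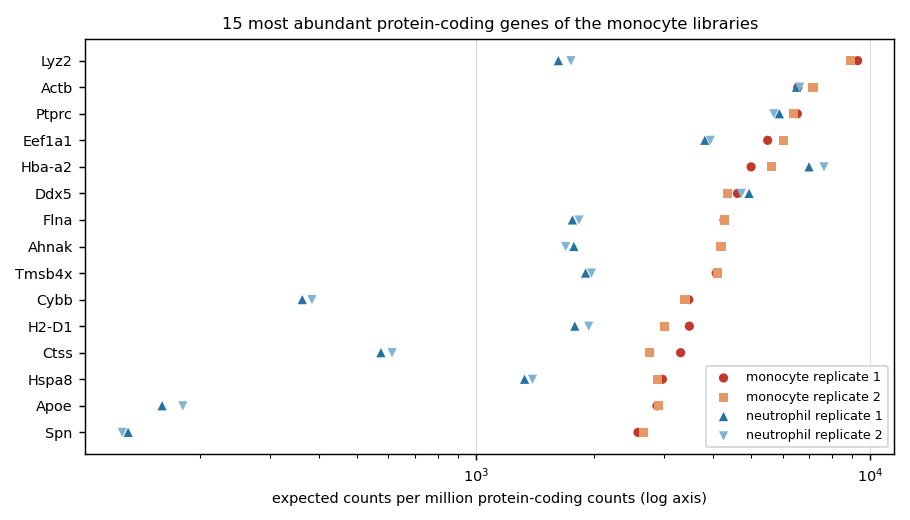
The 15 most abundant protein-coding genes of the monocyte libraries, mitochondrially encoded genes left out, on a log axis of expected counts per 1000000 protein-coding counts; each point is 1 library. The 2 monocyte points of each gene lie close together, with Lyz2 highest at 9302 and 8924, and the neutrophil points of Apoe and Spn lie far to the left.

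Correction for length changed the order and brought short transcripts to the front. On the pcTPM scale Hba-a2 was first, at 22789 and 24672, and Lyz2 was second, at 14730 and 13888. Tmsb4x followed at 12052 and 11615 pcTPM, whereas Actb was at 6725 and 7149 pcTPM. Apoe reached 6704 and 6689 pcTPM, about the level of Eef1a1 at 6502 and 7101 pcTPM, and these neighbours did not differ beyond the spread between the replicates. Hbb-bs, the adult beta globin gene, had 5426 and 5923 pcTPM, and B2m had 4628 and 5622 pcTPM. Only 9 of the 25 highest genes were shared between the ranking by counts and the ranking per length, as were 46 of the highest 100.

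Ribosomal protein genes and a granule enzyme gene entered the ranking per length. Rps24 stood at 4718 and 5043 pcTPM, Rpl13a at 4210 and 4227 pcTPM, and Rpl26 at 4199 and 3986 pcTPM. Ctss had 4843 and 3978 pcTPM, and H2-D1 had 4395 and 3887 pcTPM. Gzma, for granzyme A of cytotoxic lymphocytes, had 4599 and 4018 pcTPM, and it was at rank 33 by counts. Its place among the leading genes is taken up with the markers of natural killer (NK) cells.

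The functional make-up was read from 31 lists of named genes, which together held 1392 genes and 33.5% ± 0.05 (SD, n = 2) of the protein-coding counts. They took in 70 of the 100 most abundant genes. A list's share is the sum over its members, so it depends on which genes were listed, and some genes stand in more than 1 list.

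Surface receptors of several families were abundant. The list of integrins and adhesion molecules held 1.53% ± 0.01 of the counts (SD, n = 2), with Itgb2 at 1570 and 1593 pcCPM and Itgb1 at 1601 and 1534 pcCPM, both genes for integrin beta chains. Growth factor and cytokine receptors held 0.834% ± 0.035, and after Csf1r the highest were Ifngr1, for a chain of the interferon gamma receptor, at 1228 and 1413 pcCPM, and Tnfrsf1b, for the second TNF receptor, at 781 and 736 pcCPM. Il10ra, for a chain of the interleukin 10 receptor, had 720 and 802 pcCPM. Of the 39 receptor genes listed, 38 had a count in both libraries.

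Receptors for immune complexes and inhibitory ligands were represented across their families. The list of Fc receptors and their signalling adaptors held 0.698% ± 0.006 of the counts (SD, n = 2), and its leading members were signalling genes. They were the phosphatase gene Ptpn6 at 1114 and 946 pcCPM and the kinase genes Lyn at 787 and 868 pcCPM and Syk at 702 and 696 pcCPM. All 22 members had a count in both libraries. The paired immunoglobulin-like, LILR, CD300 and SIRP receptors held 0.573% ± 0.002, led by Treml4 at 744 and 677 pcCPM, a receptor gene of nonclassical monocytes. Next were Sirpa, for the receptor of the ligand CD47, at 693 and 719 pcCPM, and the CD300 family genes Cd300ld at 661 and 725 pcCPM and Cd300a at 547 and 501 pcCPM. Treml4 had only 34.3 and 39.1 pcCPM in neutrophils.

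Chemoattractant receptors held a smaller share, 0.314% ± 0.009 (SD, n = 2). Cx3cr1 led them, followed by Cxcr4, the receptor gene for CXCL12, at 482 and 538 pcCPM and Ccr2, the receptor gene for CCL2, at 483 and 485 pcCPM. These 3 receptor genes thus had nearly the same counts, and per length Cxcr4 was highest, at 514 and 578 pcTPM, beside 270 and 255 pcTPM for Cx3cr1 and 268 and 273 pcTPM for Ccr2. S1pr5, the fourth, encodes a sphingosine 1-phosphate receptor of patrolling monocytes and NK cells, and it stood at 424 and 416 pcCPM.

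Pattern recognition receptors and their adaptors held 0.569% ± 0.006 of the counts (SD, n = 2). After Cd36, which sits in this list too, came Tlr13, for a receptor of bacterial ribosomal RNA, at 477 and 490 pcCPM. Naip5, for a sensor of flagellin, had 319 and 341 pcCPM. Unc93b1, for the chaperone of the endosomal Toll-like receptors, had 323 and 327 pcCPM. Of the 55 listed genes, 52 had a count in both libraries. Tlr4, the receptor gene for lipopolysaccharide, which was named after its value was seen, had 48.3 and 46.9 pcCPM, and Cd14, its coreceptor, also named afterwards, had 2.76 and 11.1 pcCPM.

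Uptake and degradation were supported by the lysosomal list, which held 1.48% ± 0.03 (SD, n = 2). Besides Ctss and Psap, Ctsb, for cathepsin B, had 1756 and 1879 pcCPM, and Laptm4a, for a lysosomal membrane protein, had 636 and 836 pcCPM. The lysosomal proton pump, whose subunits acidify the organelle, held 0.157% ± 0.005, with its accessory subunit gene Atp6ap1 highest at 239 and 212 pcCPM. Of its pump subunit genes, Atp6v1b2 had 154 and 188 pcCPM, Atp6v1a had 180 and 132 pcCPM and Atp6v0e had 131 and 158 pcCPM. In neutrophils the lysosomal list summed to 6490 and 6765 pcCPM, beside 14528 and 14977 pcCPM in monocytes.

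Oxidative and antimicrobial defence were carried by few genes. In the list of NADPH oxidase and antioxidant genes, which held 0.921% ± 0.019 (SD, n = 2), Cybb was followed by Gpx1, for glutathione peroxidase, at 934 and 710 pcCPM. Txnip, for an inhibitor of thioredoxin, had 817 and 737 pcCPM, and Gsr, for glutathione reductase, had 751 and 765 pcCPM. Lysozymes and antimicrobial proteins held 1.03% ± 0.02, most of it Lyz2. Ear2, for a ribonuclease of the eosinophil-associated family, had 1010 and 1164 pcCPM, and the next members were far lower, with Pglyrp1, for a peptidoglycan recognition protein, at 41.0 and 41.9 pcCPM and Chil3, for a chitinase-like protein, at 37.6 and 31.0 pcCPM. Of the 22 members, 5 had no count in either library.

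Genes for lipid handling held 0.869% ± 0.010 of the counts (SD, n = 2), led by Apoe and Cd36. Lrp1, for an endocytic receptor that binds APOE, had 716 and 757 pcCPM. Plin2, for a coat protein of lipid droplets, had 311 and 363 pcCPM. Each of these genes stood higher than in neutrophils, where Lrp1 had 42.3 and 38.7 pcCPM and Plin2 had 62.7 and 69.8 pcCPM. Iron and heme genes held 0.195% ± 0.005, and their highest members were the ferritin light chain gene Ftl1 at 457 and 492 pcCPM, Hfe, for a regulator of iron uptake, at 291 and 278 pcCPM, and Slc11a1, for a phagosomal metal transporter, at 213 and 278 pcCPM. The ferritin heavy chain gene Fth1 had 246 and 190 pcCPM.

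Antigen presentation was weighted to class I. The class I list, with the genes for peptide loading, held 1.13% ± 0.01 (SD, n = 2), and the chaperone gene Calr had 819 and 784 pcCPM. The class II list held 0.226% ± 0.004. Its invariant chain gene Cd74 had 579 and 586 pcCPM, H2-Ab1 had 550 and 540 pcCPM and H2-Aa had 299.9 and 302 pcCPM. March1, for a ubiquitin ligase that removes class II molecules from the surface, had 305 and 308 pcCPM. All 12 class II genes had counts in both libraries, and their sum of 2291 and 2239 pcCPM stood beside 7727 and 8126 pcCPM in neutrophils. B cell markers were likewise higher in the neutrophil libraries, as given further on, and their part in this was not tested.

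Secreted signals made up a small part of the RNA. Cytokines and chemokines held 0.302% ± 0.014 (SD, n = 2), and 37 of 54 genes had a count in both libraries while 10 had none. The chemokine genes Ccl6 (809 and 957 pcCPM), Ccl9 (353 and 415 pcCPM) and Ccl4 (230 and 196 pcCPM) were among the 4 highest, with Il16 (316 and 360 pcCPM). Ccl4 and its neighbour in rank, Ccl3, are also made by NK cells. Complement and coagulation genes held 0.132% ± 0.012, led by the complement regulator gene Cr1l at 201 and 242 pcCPM, the thrombomodulin gene Thbd at 171 and 212 pcCPM and C3, for the central complement component, at 174 and 173 pcCPM. Thbs1, for thrombospondin 1, had 113 and 162 pcCPM.

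Transcription factors of the myeloid lineage were spread over a wide range. The list of 134 lineage and signalling factors held 2.09% ± 0.05 (SD, n = 2), and 133 of them had a count in both libraries. Klf6, an immediate early zinc finger gene, had the most counts, at 1240 and 1079 pcCPM. Nr4a1, whose product is needed for nonclassical monocytes, had 872 and 842 pcCPM, and Ets1, a factor gene of lymphocytes, had 770 and 702 pcCPM. Zeb2, for a transcriptional repressor, had 820.5 and 931 pcCPM. Myeloid regulators named after their values were seen were Irf8 at 380 and 417 pcCPM, Spi1, which encodes PU.1, at 236 and 242 pcCPM, Klf4 at 194 and 224 pcCPM, and Cebpb at 281 and 447 pcCPM. Cebpb was thus higher in replicate 2 by more than the others differed.

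Immediate early genes and genes for mRNA decay held 1.68% ± 0.0005 (SD, n = 2), nearly the same share in each library and beside 1.68% and 1.71% in neutrophils. Mcl1, for a short-lived survival protein, had 1872 and 1695 pcCPM, and Btg1, for an antiproliferative protein, had 1701 and 1671 pcCPM. Rgs2, for a regulator of G protein signalling, had 929 and 1023 pcCPM. The survival and death list held 0.519% ± 0.035, and after Mcl1 it contained Birc3, for an inhibitor of apoptosis, at 362 and 344 pcCPM and the BCL2 family genes Pmaip1 at 325 and 267 pcCPM and Bcl2a1b at 319 and 228 pcCPM. Bcl2a1b has close copies in the mouse genome, so its reads may be split among them.

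Interferon-stimulated genes held 0.460% ± 0.015 (SD, n = 2), beside 1.18% and 1.17% in neutrophils. Slfn2, for a Schlafen protein of leukocytes, had 680 and 567 pcCPM. Samd9l, for an antiviral protein, had 277 and 306 pcCPM and Ifi204, for a DNA sensor, had 284 and 260 pcCPM. All but 1 of the 63 listed genes, that is 62, had a count in both libraries.

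General cell functions took the largest shares. Actin and its regulators held 5.37% ± 0.02 of the counts (SD, n = 2) and cytosolic ribosomal proteins held 3.98% ± 0.01. RNA binding and splicing proteins held 3.57% ± 0.09 and translation factors 1.80% ± 0.004. The ribosomal proteins were read very differently per length, where they held 12.8% ± 0.23 of pcTPM, because their transcripts are short. By counts their highest members were Rpl7 at 1608 and 1582 pcCPM, Rpsa at 1482 and 1645 pcCPM and Rps3a1 at 1568 and 1537 pcCPM. In the other lists, Srsf5, for a splicing regulator, had 1849 and 1724 pcCPM, Hnrnpf, for an RNA-binding protein, had 1633 and 1449 pcCPM, Eef2, for an elongation factor, had 1646 and 1671 pcCPM, and the helicase gene Eif4a2 had 1421 and 1193 pcCPM.

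Energy metabolism and protein turnover were modest by comparison. Nuclear genes for oxidative phosphorylation held 0.532% ± 0.017 (SD, n = 2), led by the ATP synthase genes Atp5a1 at 498 and 429 pcCPM and Atp5b at 391 and 412 pcCPM. Glycolytic enzymes held 0.375% ± 0.007, led by the pyruvate kinase gene Pkm at 708 and 686 pcCPM. Eno3, an enolase gene that also marks nonclassical monocytes, had 307 and 341 pcCPM and stood beside the common enolase gene Eno1 at 338 and 277 pcCPM. In neutrophils Eno3 had 10.2 and 11.2 pcCPM. Proteasome subunits held 0.426% ± 0.023, with the immunoproteasome gene Psmb8 highest at 244 and 217 pcCPM. Heat shock proteins and chaperones held 1.28% ± 0.08, and besides Hspa8 the chaperones of the endoplasmic reticulum Hspa5 at 1632 and 1499 pcCPM and Hsp90b1 at 1419 and 1221 pcCPM were prominent.

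Genes of the cell cycle were low. The 38 members together held 0.0658% ± 0.0006 (SD, n = 2), the smallest share of the 31 lists. Pcna, for the replication clamp that also serves in DNA repair, was highest at 170 and 174 pcCPM, and the helicase genes Mcm6 at 80.2 and 84.7 pcCPM and Mcm4 at 58.7 and 49.8 pcCPM followed. Histones held 0.557% ± 0.028, most of it in the replacement histone genes H3f3b and H3f3a, which are transcribed outside S phase. H3f3a had 1353 and 1190 pcCPM and the linker histone gene Hist1h1c had 555 and 483 pcCPM.

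**Figure D2:**
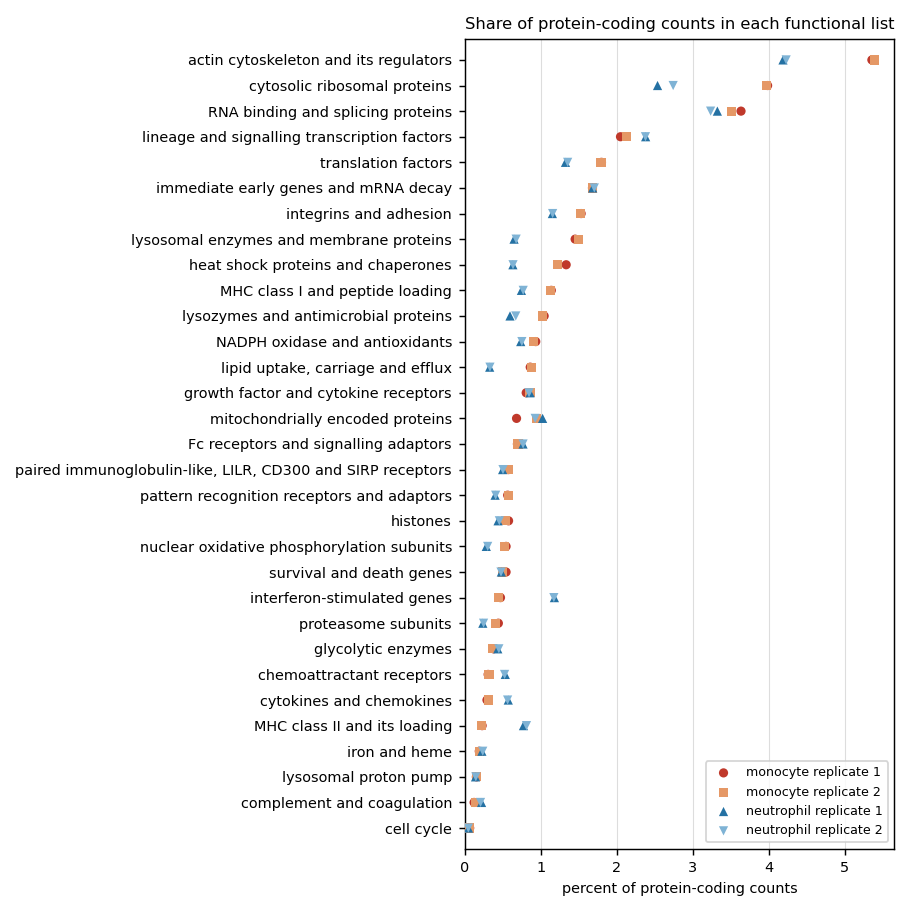
Percent of protein-coding counts in each of the 31 functional lists, 1 point a library, with lists in the order of their mean in monocytes. Actin and its regulators (5.37%) and ribosomal proteins (3.98%) hold the largest shares and the cell cycle (0.0658%) the smallest, and the 2 monocyte points coincide for most lists but lie apart for the mitochondrially encoded genes.

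The replicates were then compared to see how far a level in these libraries can be trusted. Over all protein-coding genes Spearman's rho between the monocyte libraries was 0.964, a correlation across genes, which are not independent replicates. The chi-square statistic was 26.7 times its degrees of freedom over 12338 genes, so the libraries differed by more than sampling noise and are not 1 library deposited under different names. The same quantity was 6.50 between the neutrophil libraries. Among the 9210 genes with a mean of at least 5 pcCPM, the median size of the log2 ratio between the replicates was 0.22 in monocytes, and the neutrophil replicates had 0.12. In monocytes 84.3% of genes lay within 1.5-fold, beside 96.8% in neutrophils. The monocyte libraries were thus further apart than the neutrophil libraries although they were more deeply sequenced.

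At least 2-fold differences were found for 219 genes higher in replicate 1, or 2.38% of the genes compared, and for 181 genes higher in replicate 2, or 1.97%. With 1 library on each side, these differences have no replicate check and no p-value. They lay mostly among low genes. From 5 to 10 pcCPM, 20.2% of 1198 genes differed by at least 2-fold, and from 10 to 50 pcCPM 3.94% of 3912 genes did. At 50 pcCPM or more only 4 of 4100 genes differed that much, and of the 97 genes at 1000 pcCPM or more none did, so the ranking of abundant genes rests on levels that both libraries gave. Counting error alone gave a median SD of the log2 ratio of 0.07 over the 9210 genes.

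**Figure D3:**
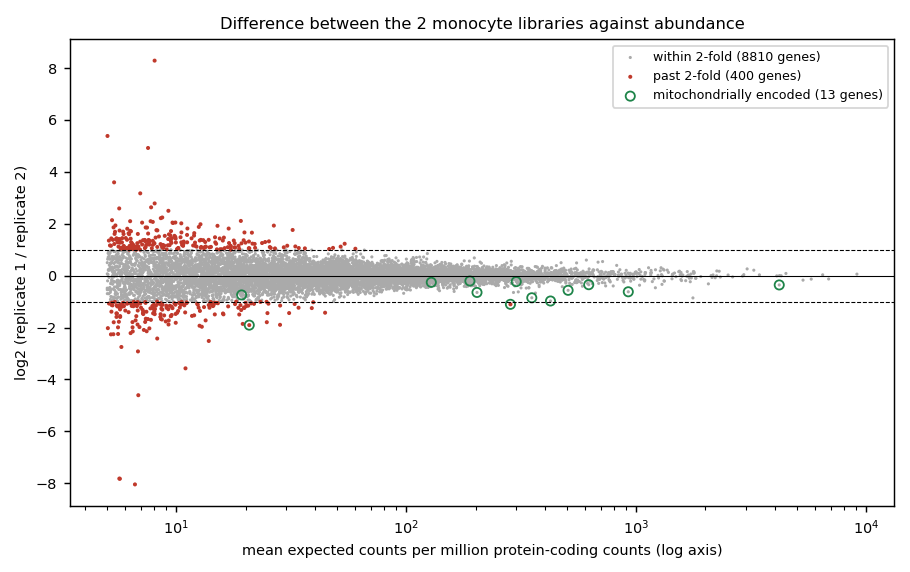
Log2 ratio of monocyte replicate 1 over replicate 2 against the mean level on a log axis, for the 9210 genes at 5 expected counts per 1000000 protein-coding counts or more; dashed lines mark 2-fold. The spread narrows as the level grows, the 400 genes past 2-fold lie mostly at the left, and the 13 mitochondrially encoded genes all lie below 0.

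Read assignment moved with a small part of these differences. RSEM's own uncertainty of the count exceeded 10% for 28 of the 400 genes past 2-fold, or 7%, beside 0.532% of all 9210 genes. Replication-dependent histone genes, which are near-identical in sequence, were among them, and of the 45 histone genes at 5 pcCPM or more, 8 were at least 2-fold higher in replicate 1 and 5 in replicate 2, beside the 2.38% and 1.97% of all genes. Gene length also moved with the difference. Past 2-fold were 8.09% of the genes under 500 bases of effective length and 2.55% of those over 4000 bases. The part of length in the differences was not tested.

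The largest differences among genes at 50 pcCPM or more were of modest size. Grb2, for a signalling adaptor of receptor tyrosine kinases, had 75.6 and 32.2 pcCPM, a log2 ratio of 1.23. Gtf2e2, for a subunit of the general transcription factor TFIIE, had 71.0 and 32.6 pcCPM, and Lars2, for the mitochondrial leucyl-tRNA synthetase, had 80.8 and 39.3 pcCPM. The other 5 genes of this direction, Lrch4, Ube4a, Mphosph10, Ndufs1 and Hnrnpd, had log2 ratios from 0.84 to 0.99. In the other direction the mitochondrially encoded mt-Atp8, mt-Cytb and mt-Nd3 came first, and they are described with their list. Lrrcc1 had 36.8 and 65.5 pcCPM and Ube2v1, for a ubiquitin-conjugating enzyme variant, had 38.8 and 68.5 pcCPM, at log2 ratios of -0.83 and -0.82. Atxn10, Snap29 and Zfp984 had log2 ratios from -0.78 to -0.73. None of these 16 genes was a monocyte marker of the lists used here.

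Mitochondrially encoded genes were the list on which the replicates differed most evenly. They held 0.682% of the counts in replicate 1 and 0.949% in replicate 2, and all 13 were higher in replicate 2. The member with the most counts, mt-Co1, for a subunit of cytochrome c oxidase, had 3670 and 4703 pcCPM. The low member mt-Nd4l lay furthest apart, at 8.71 and 32.8 pcCPM, a log2 ratio of -1.91. Among members at 50 pcCPM or more it was mt-Atp8, for a subunit of ATP synthase. This gene had 180 and 387 pcCPM, a log2 ratio of -1.10. No other gene at 50 pcCPM or more was at least 2-fold higher in replicate 2. The cytochrome b gene mt-Cytb and the complex I subunit gene mt-Nd3 followed at log2 ratios of -0.98 and -0.85. The median log2 ratio of the list was -0.62, beside medians between -0.18 and 0.16 for the other functional lists. In the neutrophil libraries the mitochondrially encoded genes held 1.02% and 0.927%. RNA quality values were not used here, and the part of RNA quality in the difference was not tested.

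The nonclassical monocyte list had a larger summed level than the classical list. All 20 genes of the nonclassical list had counts in both libraries, and their sum was 16070 and 16046 pcCPM. After Apoe, Spn, Adgre4 and Cd36, the list was led by Ear2 and Ace. The 20 genes of the classical list also all had counts, but they summed to 2584 and 2502 pcCPM, below the 4406 and 4581 pcCPM of the neutrophils. Its highest members included Plac8, for a protein of myeloid and lymphoid cells, at 533 and 435 pcCPM, Ccr2, and S100a4, for a calcium-binding protein, at 229 and 273 pcCPM. Plac8 is also made by lymphocytes.

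The antibody named in the label recognises the products of Ly6g and Ly6c genes, and both were therefore looked up after the ranking was seen. Ly6g had 0 counts in both monocyte libraries. Ly6c2, which marks classical monocytes, had 549 and 669 counts, or 27.6 and 34.6 pcCPM. Vcan, for the matrix protein versican of classical monocytes, had 20 and 24 counts. Per length, Ly6c2 reached 66.4 and 83.1 pcTPM, beside 383 and 368 pcTPM for Ace and 3209 and 3591 pcTPM for Ear2, both of the nonclassical list. Other members of the classical list stood higher per length than Ace, with Plac8 at 1617 and 1290 pcTPM and S100a4 at 1240 and 1396 pcTPM. The shares of the 2 kinds of monocyte were not estimated.

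Markers of NK cells were the strongest trace of another leukocyte. NK cells are cytotoxic lymphocytes that kill with perforin and granzymes. All 30 genes of the NK list had counts in both monocyte libraries, and they summed to 5618 and 5801 pcCPM, or 0.571% ± 0.013 of the counts (SD, n = 2), beside 106 and 103 pcCPM in neutrophils. Gzma contributed 1871 and 1674 pcCPM. S1pr5 had 424 and 416 pcCPM. The activating receptor genes Ncr1 and Klrk1 had 306 and 326 pcCPM and 260 and 281 pcCPM, and the perforin gene Prf1, named after its value was seen, had 191 and 235 pcCPM.

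T cell markers were much lower. All 24 T cell genes had a count in at least 1 monocyte library, and the list summed to 522 and 607 pcCPM, beside 1058 and 1100 pcCPM in neutrophils. Its leading genes included Cd2 (152 and 157 pcCPM), Lck (87.8 and 95.5 pcCPM) and Cd28 (39.5 and 56.2 pcCPM), of which Cd2 and Lck are shared with NK cells. The genes of the T cell receptor complex were uneven. Cd3e had 12 and 4 counts, Cd3d had 40 and 56 and Trac had 22 and 16, whereas the beta chain constant genes Trbc1 and Trbc2 had 803 and 1067 counts and 308 and 378 counts. Cd3g had 142 and 177 counts, and Cd247, for the zeta chain that NK cells also use, had 752 and 1027. These genes were picked out after their values were seen.

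B cell markers were present at a lower level than in neutrophils. All 23 genes had counts in both libraries, and they summed to 1601 and 1883 pcCPM, against 11789 and 11679 pcCPM in the neutrophil libraries. Each gene stood at between 3.99% and 39.0% of its neutrophil level, with a median of 11.6%. The immunoglobulin mu gene Ighm had 483 and 528 pcCPM, Ms4a1, for CD20, had 172 and 228 pcCPM, the kappa light chain gene Igkc had 168 and 172 pcCPM, and Bank1, for a signalling scaffold of B cells, had 140 and 157 pcCPM.

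The summed level of genes of antibody-secreting cells went the other way. The plasma cell list summed to 552 and 662 pcCPM, beside 68.0 and 73.0 pcCPM in neutrophils. Most of it came from Igha, the heavy chain gene of immunoglobulin A, at 281 and 389 pcCPM, and Jchain, which joins antibody monomers, at 164 and 186 pcCPM. The regulator gene Prdm1, which is also used by other lymphocytes, had 38.1 and 42.9 pcCPM, and Ighg2b had 668 and 220 counts. The replicates thus differed about 3-fold for Ighg2b but less for Igha and Jchain. The defining gene Tnfrsf17, chosen after its value was seen, had 10 and 22 counts. Mzb1 and Sdc1, also chosen afterwards, went against the sum. Mzb1 had 15.7 and 10.6 pcCPM, beside 23.2 and 27.2 pcCPM in neutrophils. Sdc1 had 9.64 and 8.37 pcCPM, beside 14.6 and 11.2 pcCPM. The other members of the list had higher means in monocytes than in neutrophils.

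Most neutrophil genes were near 0 in the monocyte libraries. The list of 30 summed to 829 and 881 pcCPM, beside 12514 and 13044 pcCPM in neutrophils. Counts in both libraries were found for 14 members, in only 1 library for 6, and in neither for 10. Of the 24 members with at least 5 pcCPM in neutrophils, the median stood at 1.51% of the neutrophil level, and 12 stood under 1%. The 10 members without a count included Ly6g, the protease inhibitor genes Stfa1, Stfa2, Stfa2l1 and Stfa3, the granule peptide gene Camp and the cytokine gene Il1f9. Some of these were low in neutrophils as well, with 0 and 3 counts for Stfa2, 9 and 5 for Stfa3 and 26 and 17 for Camp, whereas Il1f9 had 3959 and 3849 counts there.

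The sum that remained came from a few genes. Retnlg, for a resistin-like protein, had 294 and 310 pcCPM, beside 239 and 273 pcCPM in neutrophils, and Trem1, for an activating receptor, had 245 and 270 pcCPM, beside 248 and 252 pcCPM. Hdc, for histidine decarboxylase, which basophils also express, had 114 and 106 pcCPM, and Csf3r, for the G-CSF receptor, had 82.3 and 115 pcCPM. Csf3r stood at 3436 and 3253 pcCPM in neutrophils. The alarmin genes S100a8 and S100a9, chosen after their values were seen, had only 193 and 56 counts and 126 and 135 counts. Ltf, for lactoferrin, had 50 counts in replicate 1 and 0 in replicate 2, and Lcn2, for lipocalin 2, had 14 and 0.

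Basophil genes formed a further trace. Of the 16 genes listed for basophils and mast cells, 14 had counts in both libraries and the mast cell protease genes Mcpt4 and Tpsb2 had none. Cyp4f18, for a lipid hydroxylase, and Hdc led the list at 197 and 218 pcCPM and 114 and 106 pcCPM, but neutrophils express both. More specific was Ms4a2, for a chain of the high-affinity IgE receptor, at 70.9 and 61.4 pcCPM. Cma1, for a chymase, had 72.3 and 92.7 pcCPM, but it stands in the NK list as well. Ms4a2 had only 1.72 and 5.34 pcCPM in neutrophils. Further genes of the list chosen after their values were seen were Cd200r3 with 1309 and 878 counts, Gata2 with 711 and 809 and Il6 with 884 and 1149. Lower were Il4 with 99 and 148, Mcpt8 with 90 and 255 and Prss34 with 2 and 33.

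The eosinophil list gave a mixed picture. It summed to 916 and 912 pcCPM, of which Adgre1, the F4/80 gene that monocytes express, made up 595 and 582 pcCPM. Ccr3, for the eotaxin receptor that basophils share, had 217 and 226 pcCPM. Alox15, for a lipoxygenase, had 54.8 and 57.0 pcCPM, and Siglecf, for an inhibitory lectin, had 30.1 and 36.1 pcCPM. The granule gene Epx had 0 counts in both libraries, and Prg2, for the major basic protein, had 10 and 28 counts.

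Red cell transcripts were abundant but few in kind. The erythroid list summed to 8593 and 9155 pcCPM, beside 11461 and 12452 pcCPM in neutrophils. Hba-a2, Hbb-bs, Hbb-bt and Hba-a1 were its 4 highest genes, with Hbb-bs at 1683 and 1788 pcCPM and Hbb-bt at 731 and 482 pcCPM. Bpgm, for a red cell enzyme that tunes oxygen binding, and Alas2, for the first enzyme of heme synthesis in red cells, which were named after their values were seen, had 244 and 208 pcCPM and 197 and 210 pcCPM. In contrast, the genes of erythroid precursors Klf1, Epor, Car1 and Rhd had 0 counts in both libraries.

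Of the 20 platelet and megakaryocyte genes, 14 had counts in both libraries. The list summed to 474 and 516 pcCPM, led by Thbs1 at 113 and 162 pcCPM, F5, for coagulation factor V, at 127 and 142 pcCPM, Itgb3, for the integrin beta 3 chain, at 80.5 and 56.9 pcCPM and Rgs18, for a regulator of G protein signalling, at 42.0 and 53.2 pcCPM. The platelet chemokine genes Pf4 and Ppbp, chosen after their values were seen, had 78 and 67 counts and 221 and 276 counts. Also chosen afterwards were Itga2b, for the integrin chain of platelets, with 814 and 790 counts, Vwf, for von Willebrand factor, with 391 and 347, and the platelet tubulin gene Tubb1 with 356 and 190. Gp9, for a platelet glycoprotein, had 0 counts in both libraries. The summed level was below that of the erythroid list by more than 10 times.

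Dendritic cell, progenitor, macrophage and endothelial genes were the remaining lists. The list for conventional dendritic cells summed to 2151 and 2136 pcCPM, but its 4 highest genes were the class II genes Cd74, H2-Ab1 and H2-Aa with Cd24a (288 and 302 pcCPM). Its lower genes, of which 5 were chosen after their values were seen, were uneven. Xcr1 had 11 and 12 counts and Clec9a had 52 and 39. Zbtb46 had 117 and 80 counts, Flt3 had 159 and 127 and Cd209a had 469 and 457. Plasmacytoid dendritic cell genes summed to 232 and 259 pcCPM, led by Tcf4 at 86.9 and 90.8 pcCPM, Irf7 at 48.3 and 58.1 pcCPM, Runx2 at 44.7 and 47.2 pcCPM and Spib at 16.9 and 26.9 pcCPM, all transcription factor genes used in other cells as well. Siglech, a defining receptor gene of these cells named afterwards, had 38 and 13 counts.

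Progenitor genes summed to 875 and 847 pcCPM, nearly all of it Calr, which every cell uses. Meis1, Myb and Flt3, regulators and a receptor of early progenitors, had 22.2 and 23.6, 12.2 and 18.4, and 7.99 and 6.56 pcCPM. The granule enzyme genes Mpo, Elane and Prtn3 of bone marrow precursors, chosen after their values were seen, had 0 counts in both libraries. In the same list Ctsg had 0 and 4 counts, Prss57 had 0 and 6 and Ms4a3 had 0 and 9. Of the 16 genes of resident tissue macrophages, only 5 had a count, namely Mrc1 with 269 and 173, Axl with 128 and 123, Cd163 with 90 and 78, Siglec1 with 0 and 20 and C1qa with 0 and 3. Of the 12 endothelial genes 3 had a count. They were Pecam1 with 1690 and 1612 counts, which leukocytes express, Flt1, for a VEGF receptor, with 1146 and 1345, and Esam with 0 and 2. The vascular cadherin gene Cdh5 had 0 counts in both libraries.

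**Figure D4:**
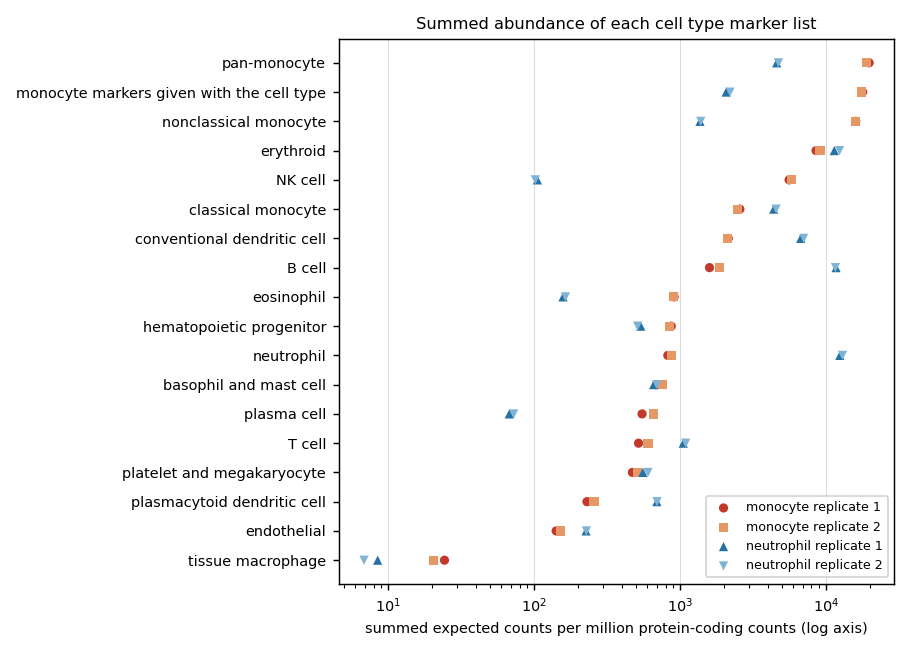
Summed level of each of 18 cell type marker lists in expected counts per 1000000 protein-coding counts on a log axis, 1 point a library. The 3 monocyte lists other than the classical one lie highest in monocytes, the NK list lies at 5618 and 5801 beside 106 and 103 in neutrophils, and the neutrophil list lies at 829 and 881 beside 12514 and 13044.

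**Figure D5:**
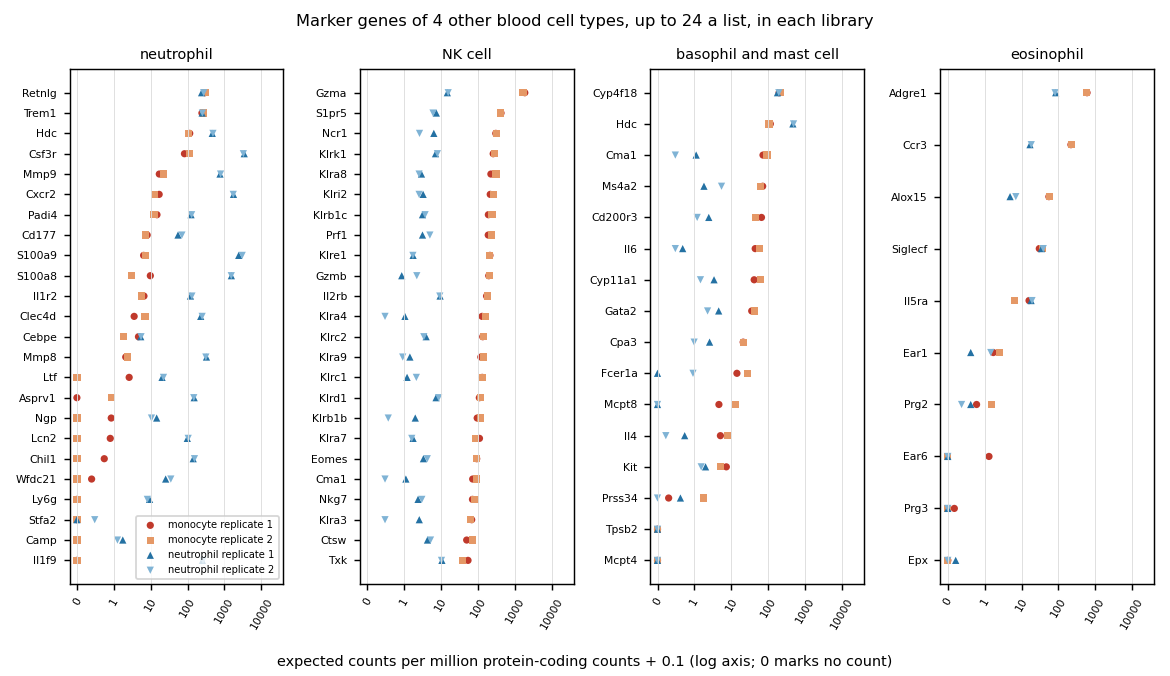
Level of single marker genes of 4 other blood cell types in each library, in expected counts per 1000000 protein-coding counts plus 0.1 on a log axis, with up to 24 genes a list. NK genes lie to the right in both monocyte libraries, most neutrophil genes lie to the left of their neutrophil points, and the eosinophil gene Epx lies at 0 in both monocyte libraries.

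The lists of other cell types differed between the monocyte libraries to unequal degrees. The sums of the NK, neutrophil, erythroid, B cell, T cell and plasma cell lists were each higher in replicate 2. So were those of the basophil, platelet, plasmacytoid dendritic cell and endothelial lists. The eosinophil (916 and 912 pcCPM), conventional dendritic cell (2151 and 2136), progenitor (875 and 847) and tissue macrophage (24.5 and 20.5) sums were higher in replicate 1. The median log2 ratio of replicate 1 over replicate 2 was -0.37 for the B cell list and -0.33 for the T cell list, against -0.10 for the NK list and 0.05 for the pan-monocyte list. How much of the level of each shared gene came from the other cell types was not tested.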

How the data were processed

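Total RNA of sorted blood monocytes was measured in 2 libraries, with 2 neutrophil libraries beside them, grouped by the labels' descriptions. Per the labels and the study's methods, the authors aligned the reads to mm10 with STAR and estimated levels with RSEM. The deposited expected counts are RSEM's estimated reads per gene, in which a read that fits several genes is divided between them, and the deposited TPM values correct them for length and sum to 1000000 over all entries. Short noncoding RNAs hold most of TPM, so that protein-coding genes held only 10.3% and 9.33% of it in monocytes. Whether counting used strand was not found in the sources used here.

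Names and gene types came from GENCODE M21 by identifier without version, matching 42462 of 43346, a later release than the one the study's methods name. Spike-in entries held 85 and 16 counts in the monocyte libraries and 0 in the neutrophil libraries. Genes were ranked by pcCPM, the expected count scaled to 1000000 over protein-coding rows, and pcTPM was scaled likewise. Replicate ratios used 1 added count and genes with a mean of at least 5 pcCPM. The chi-square test took genes with at least 10 counts in sum, rounded. The ratio was tested on simulated data. No test between cell types was run. The cell type, its markers, the gene lists and the alternatives were chosen with earlier results of these data known.

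Genes were named by rule, namely the 25 highest by pcCPM, the 15 highest by pcTPM, the 4 highest of each list (every member where 5 or fewer had a count), the markers given with the cell type, and the 8 largest replicate ratios in each direction at 50 pcCPM or more. Mitochondrially encoded genes were left out of the first 2 of these, and predicted gene models (Gm and Rik names) were left out unless 5 or fewer had a count. A few genes that the rule names are not reported here. Python 3.11.15 with pandas 2.3.3 and scipy 1.17.1 was used, and edgeR 4.0.16 and DESeq2 1.42.0 gave alternative scaling only.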

Additional observations from a re-analysis of the deposited data

How the results depend on the processing

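No paired analysis was possible because the replicate numbers follow deposit order only and no test between groups was run. Leaving out a library was not possible for the replicate ratios, which need both. The number of genes at least 2-fold apart depended on the filter. Without a filter on low counts, 1404 genes were higher in replicate 1 and 1472 in replicate 2, of 12902, with a rho of 0.974. At a mean of at least 50 pcCPM the numbers were 3 and 1, of 4100, with a rho of 0.963. These settings change which genes are compared. TMM and DESeq2 scaling, a pseudocount of 0.5, posterior mean counts and leaving out mitochondrially encoded genes each kept the numbers within 1.5 times of 219 and 181.

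With TPM rescaled over protein-coding rows, the 10 highest genes held 9.73%, 383.5 genes on average held 50%, ribosomal proteins held 12.8%, the NK list summed to 9057 and the neutrophil list to 1645 pcTPM. Scaled to all rows with a gene identifier, these values were 4.16%, 1541 genes, 3.03%, 4344 and 650.4 CPM, since the denominator is larger. With mitochondrially encoded genes left out, ribosomal proteins held 4.01%. Posterior mean counts gave the same values within the spread between replicates. In each library alone the 10 highest genes held 5.37% to 5.58% and the NK list summed to 5618 to 5801 pcCPM. A single library always lies within the SD around the mean of both, so this setting cannot show a change beyond that spread. The limit of 0.151 to 0.155 pcCPM for 0 counts covers counting error only. The replicates differed by more than this for some markers, with 50 and 0 counts for Ltf and 0 and 38 counts for Treml1. A marker with 0 counts in a library is therefore not shown to lie below this limit in the cells.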

Other observations

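A noncoding gene model outside the protein-coding ranking, Gm42418, chosen after its value was seen, differed more between the monocyte libraries than any protein-coding gene at its level, with 2147 pcCPM in replicate 1 and 288 pcCPM in replicate 2, beside 295 and 334 pcCPM in the neutrophil libraries. The cause was not tested.

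The transcripts of the Y chromosome were found in both cell types. Ddx3y, for an RNA helicase, had 493 and 509 pcCPM in monocytes and 221 and 189 pcCPM in neutrophils. Xist, the RNA of the inactive X chromosome in females, was at 0 counts in the monocytes and at 324 and 332 pcCPM in the neutrophils. The study's methods give male animals, from which the Xist level of the neutrophil libraries differs, and the cause was not tested.

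The neutrophil libraries had more protein-coding genes with a count, 13646 and 13643, than the monocyte libraries, 12082 and 12170, although the latter held more counts. At 5 pcCPM or more the numbers were close, at 9310 and 9327 in neutrophils and 9165 and 9146 in monocytes.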
